A study of Mus musculus with 2 samples.

Results

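The 7 inhibitors of cyclin-dependent kinases (CDKs) and the 3 D-type cyclins were described in mouse E14.1 embryonic stem cells that carried T136A AHCY or WT AHCY. The 10 genes and the gene lists below were chosen by name with earlier results of these data known, so counts among them are descriptions. Out of 25740 genes with a value, every one of the 10 was found. They comprise the CIP/KIP inhibitors Cdkn1a, Cdkn1b and Cdkn1c, the INK4 inhibitors Cdkn2a, Cdkn2b, Cdkn2c and Cdkn2d, and the cyclins Ccnd1, Ccnd2 and Ccnd3. AHCY hydrolyses S-adenosylhomocysteine, the by-product of methylation reactions, and T136A exchanges a threonine of the protein for alanine. Messenger RNA was sequenced from 1 library per genotype. The labels name no further treatment, do not say how the T136A line was made or whether it is 1 clone, and do not say what both lines share beyond E14.1. No spread between replicates could therefore be measured, and "higher" and "lower" below compare libraries.

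D-type cyclins are the part of the cell cycle engine that answers to growth signals. Bound to CDK4 or CDK6, they phosphorylate the retinoblastoma protein and so release E2F transcription factors, which switch on the genes of S phase. INK4 proteins bind CDK4 and CDK6 and keep D-type cyclins off them, while CIP/KIP proteins bind finished cyclin and CDK complexes, above all those of CDK2. Mouse embryonic stem cells are known for a very short G1 phase, for strong CDK2 activity with cyclins E and A through most of the cycle, and for low levels of several of these inhibitors.

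Values are in RPKM, read numbers divided by exon length and by library size, so levels of different genes can be compared approximately. The length counts all annotated exons of a gene, and which of them these cells use was not determined. The order, shares and sums of the members given below carry that limit, which their counting intervals do not cover. The totals implied by the values were 18396840 reads in the T136A library and 17506155 reads in the WT library. Counts were made over the 12320 genes with 1 RPKM or more in either library. The log2 ratio of a gene compares T136A with WT after 1 RPKM is added to each value, and a gene was counted as higher or lower when this ratio was at least 1 in size, a 2-fold difference on that scale. Of the 10 members, 8 reached 1 RPKM; Cdkn2c and Ccnd2 stayed under it in both libraries, Cdkn2b reached it in T136A alone and Cdkn1c in WT alone. Intervals are 95% counting intervals from the reads behind each value. They cover counting error only, since culture, clone and library preparation cannot be told apart from genotype with 1 library each.

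The inhibitors differed between the libraries in opposite directions, and the D-type cyclins differed little. Cdkn2a and its neighbour Cdkn2b were at least 2-fold higher in T136A, 2 of the 8 members kept, where 3.13% of all genes kept were. Cdkn1b was at least 2-fold lower, 1 of 8, where 3.10% of all genes kept were. The other 5 members lay within 2-fold. Cdkn2b passed the minimum only through the library in which it was high, so its place in that count is a description. The median log2 ratio was -0.13 over the 8 members kept, 0.07 over all 10 members and -0.03 over all 12320 genes. The members split in both directions, so the sign of their median depends on whether the 2 low-level genes are included.

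**Figure D1:**
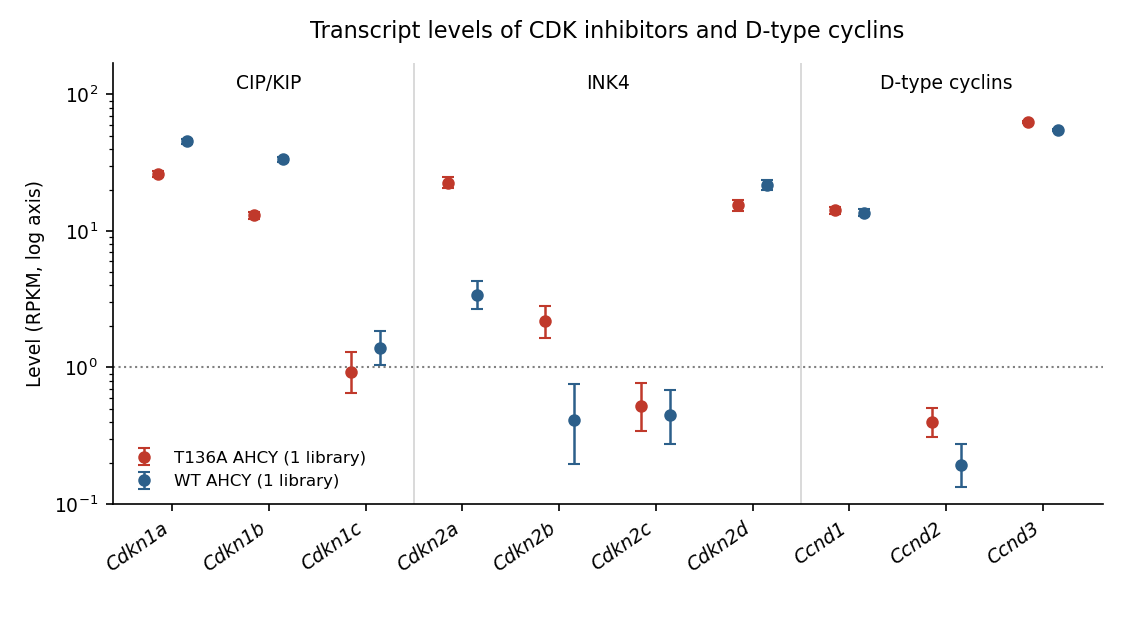
Level of each gene in RPKM on a log axis, in the T136A library (red, left of each pair) and the WT library (blue, right), with 95% exact Poisson counting intervals. The dotted line marks 1 RPKM. Cdkn2a stood at 22.6 RPKM in T136A and 3.41 RPKM in WT, whereas Cdkn1b stood at 13.0 RPKM in T136A and 33.5 RPKM in WT.

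Among the CIP/KIP genes, the point estimates of all 3 were lower in T136A. Cdkn1b (ENSMUSG00000003031; GRCm38 chromosome 6, 134920401 to 134925513, plus strand) encodes p27, which holds cyclin E and CDK2 complexes inactive. It was at 13.0 RPKM in T136A and 33.5 RPKM in WT, from 1085 reads in T136A and 2669 in WT. That made it 2.59-fold lower in T136A (2.41 to 2.78), and only 1.21% of the genes kept had a lower ratio. Cdkn1a (ENSMUSG00000023067; chromosome 17, 29090976 to 29100727, plus strand) encodes p21, the inhibitor best known as a target of p53. It was at 26.2 RPKM in T136A and 45.4 RPKM in WT, 1.73-fold lower (1.63 to 1.84) and inside the 2-fold line, with a log2 ratio of -0.77. Cdkn1c encodes p57 and is an imprinted gene read from the maternal copy. It was at 0.933 RPKM in T136A and 1.40 RPKM in WT, from 35 reads in T136A and 50 in WT, and its interval of 0.420 to 1.05 for the ratio of T136A over WT included 1, so a difference was not detectable at this depth.

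The lower summed CIP/KIP level in T136A came from Cdkn1a and Cdkn1b together. The sum of the 3 genes was 40.1 RPKM in T136A and 80.2 RPKM in WT, a ratio of 0.500 (0.478 to 0.523). Cdkn1a made up 65.4% of that sum in T136A and 56.5% in WT. Cdkn1b made up 32.3% in T136A and 41.7% in WT, and Cdkn1c 2.33% in T136A and 1.75% in WT.

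Neighbouring genes were set beside Cdkn1b and Cdkn1c because the first passed the 2-fold line and the second is imprinted. The nearest genes with a value beside Cdkn1b were the noncoding 2810454H06Rik, 19.3 kb away, and Gm44238, 3.5 kb away, neither of which reached 1 RPKM. The nearest protein-coding gene on the lower side, Gpr19, an orphan receptor 21.8 kb from Cdkn1b, was at 7.22 RPKM in T136A and 15.2 RPKM in WT, with a log2 ratio of -0.97. The next protein-coding gene on the other side, Apold1, was at 0.137 RPKM in T136A and 0.160 RPKM in WT. In the imprinted domain of Cdkn1c, 6 of 10 genes reached 1 RPKM. Of these 0 were 2-fold apart, where 3.13% of all genes kept were higher and 3.10% lower. Phlda2, which restrains placental growth and is also read from the maternal copy, was at 63.5 RPKM in T136A and 73.7 RPKM in WT. Ascl2, a transcription factor of the trophoblast, had the highest log2 ratio there, 0.67, at 2.88 RPKM in T136A and 1.44 RPKM in WT, and Slc22a18 the lowest, -0.27.

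Cdkn2a differed most of all members. The gene (ENSMUSG00000044303; GRCm38 chromosome 4, 89274471 to 89294653, minus strand) yields 2 unrelated proteins from separate first exons: the CDK4 and CDK6 inhibitor p16INK4a, and ARF, which frees p53 by binding its ligase MDM2. Cdkn2a was at 22.6 RPKM in T136A and 3.41 RPKM in WT, from 487 reads in T136A and 70 in WT. It was 6.62-fold higher in T136A (5.14 to 8.63), and only 0.122% of the genes kept had a higher ratio. The gene-level value sums both products. Its exon length of 1172 bases, which returned whole reads in both libraries, holds the first exon of ARF (320 bases) and that of p16INK4a (207 bases) beside 341 and 304 bases of shared exons. The product behind the difference cannot be told from these values.

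Cdkn2b lies 11.6 kb from Cdkn2a on the same strand and was higher as well. It encodes p15INK4b, an inhibitor of CDK4 and CDK6 known as a target of TGF-beta signalling. Its level (ENSMUSG00000073802; chromosome 4, 89306299 to 89311039) was 2.19 RPKM in T136A and 0.410 RPKM in WT. Reads for Cdkn2b came out whole only with an exon length of 1393 bases in place of the annotated 1390, as 56 in T136A and 10 in WT. The fold of 5.33 therefore had a wide interval, from 2.69 to 11.7, and on the log2 scale with 1 RPKM added it was 1.18. With 5 RPKM added it was 0.41, inside the 2-fold line. The genes next to the pair did not share the size of the difference. Mtap, which salvages methylthioadenosine and is the nearest protein-coding gene on the Cdkn2a side at 93.4 kb, was at 47.0 RPKM in T136A and 34.0 RPKM in WT, a log2 ratio of 0.46. The snoRNA gene Gm26490, the nearest of any type on that side, had a log2 ratio of -0.28. On the Cdkn2b side, the noncoding Gm12609 was listed at 0 in both libraries, and Dmrta1, 368.4 kb away, was at 0.0130 RPKM in T136A and 0.0953 RPKM in WT.

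The start-site windows of these genes are shown because the 2 Cdkn2a products start at different promoters that a gene-level value merges, and because Cdkn2a, Cdkn2b and Cdkn1b are the members past the 2-fold line. Each window runs from 250 bases before to 50 bases after a RefSeq start, GRCm38.p6, written in the direction of transcription, and capitals mark the GC box GGGCGG or its reverse complement, the letters bound by Sp1 and related factors.
Cdkn2a, start of the ARF form, chr4:89294570-89294869, minus strand: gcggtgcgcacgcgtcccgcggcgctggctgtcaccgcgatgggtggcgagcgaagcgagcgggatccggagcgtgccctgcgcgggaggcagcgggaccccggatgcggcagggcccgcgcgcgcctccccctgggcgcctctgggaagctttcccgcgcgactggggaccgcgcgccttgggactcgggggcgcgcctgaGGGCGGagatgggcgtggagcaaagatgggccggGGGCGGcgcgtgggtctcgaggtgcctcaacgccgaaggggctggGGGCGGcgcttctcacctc
Cdkn2a, start of the p16INK4a form, chr4:89282143-89282442, minus strand: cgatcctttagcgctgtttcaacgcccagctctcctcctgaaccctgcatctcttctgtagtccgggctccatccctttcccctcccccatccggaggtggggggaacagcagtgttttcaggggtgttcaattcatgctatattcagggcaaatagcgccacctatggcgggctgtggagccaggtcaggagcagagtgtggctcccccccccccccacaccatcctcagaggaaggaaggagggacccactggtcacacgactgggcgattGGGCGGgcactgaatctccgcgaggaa
Cdkn2b, chr4:89310983-89311282, minus strand: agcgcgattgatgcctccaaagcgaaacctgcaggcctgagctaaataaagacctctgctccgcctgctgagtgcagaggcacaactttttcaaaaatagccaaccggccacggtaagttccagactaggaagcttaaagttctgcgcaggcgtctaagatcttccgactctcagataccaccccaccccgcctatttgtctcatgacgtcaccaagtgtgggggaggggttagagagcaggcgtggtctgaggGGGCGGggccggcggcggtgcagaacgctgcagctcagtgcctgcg
Cdkn1b, chr6:134920151-134920450, plus strand: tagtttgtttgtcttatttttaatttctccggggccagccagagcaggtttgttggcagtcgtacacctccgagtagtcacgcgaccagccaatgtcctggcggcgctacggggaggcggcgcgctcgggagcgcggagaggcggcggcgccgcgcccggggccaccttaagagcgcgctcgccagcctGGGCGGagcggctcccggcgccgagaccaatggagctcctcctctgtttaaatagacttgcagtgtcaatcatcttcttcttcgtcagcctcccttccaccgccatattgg
The ARF window stands out in composition: it is 77.0% G or C and holds 45 CpG pairs, more than 98.1% of the 32851 windows in the table, which have a median of 7. The p16INK4a window holds 12 CpG pairs and is 60.3% G or C, that of Cdkn2b holds 18, and that of Cdkn1b holds 30. GC boxes numbered 3 in the ARF window and 1 in each of the other 3 windows, and 35.7% of all windows hold at least 1. The E2F motif TTTCCCGC, searched on both strands, occurred 1 time, in the ARF window, and is present in 1.07% of all windows. A second E2F motif, TTTGGCGC, the E-box CACGTG, the TATA box TATAAA and the FOXO motif GTAAACA did not occur in these 4 windows; they are found in 0.514%, 7.15%, 13.6% and 3.65% of all windows. The CCAAT box, CCAAT, occurred 3 times in the Cdkn1b window and 1 time in that of p16INK4a, and 37.4% of windows have it. These matches describe the sequence and show no binding. Of the 10 members, 7 have windows in the table, 11 in all.

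The other INK4 genes differed less. Cdkn2d (ENSMUSG00000096472; chromosome 9, 21288410 to 21291407, minus strand) encodes p19INK4d, an inhibitor whose level is known to change through the cell cycle. It was at 15.5 RPKM in T136A and 21.8 RPKM in WT, from 449 reads in T136A and 602 in WT, 1.41-fold lower in T136A (1.24 to 1.60). Cdkn2c encodes p18INK4c, an INK4 inhibitor with roles in blood and germ cells. Its 26 reads in T136A and 21 in WT correspond to 0.526 RPKM in T136A and 0.447 RPKM in WT, and the interval of the fold, 0.637 to 2.20, included 1.

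The INK4 sum and its make-up both differed. The 4 genes added up to 40.8 RPKM in T136A and 26.1 RPKM in WT, a ratio of 1.56 (1.42 to 1.72). Cdkn2a accounted for 55.4% of that sum in T136A and 13.1% in WT, and Cdkn2d for 38.0% in T136A and 83.7% in WT. Without Cdkn2a the sum was 18.2 RPKM in T136A and 22.7 RPKM in WT, so the direction of the INK4 sum rests on that gene. Its value merges p16INK4a with ARF, which is not a CDK inhibitor, and the share of each is not known.

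**Figure D2:**
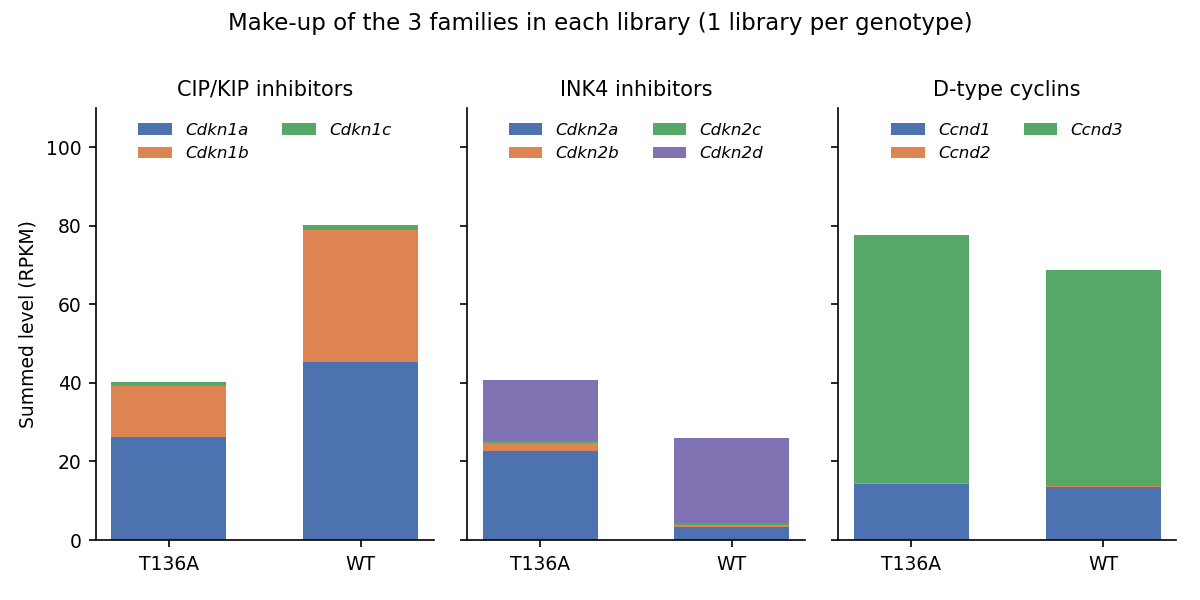
Summed levels in RPKM of the 3 families, stacked by gene, with the T136A bar left of the WT bar in each panel. The CIP/KIP bar is at 40.1 RPKM in T136A and 80.2 RPKM in WT, the INK4 bar at 40.8 RPKM in T136A and 26.1 RPKM in WT, and the D-type cyclin bar at 77.5 RPKM in T136A and 68.7 RPKM in WT.

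Ccnd3 was the main D-type cyclin of these cells in both libraries. Ccnd3 (ENSMUSG00000034165; chromosome 17, 47505051 to 47599691, plus strand) was at 63.0 RPKM in T136A and 54.9 RPKM in WT, from 10165 reads in T136A and 8439 in WT. The ratio of 1.15 had a narrow interval, 1.11 to 1.18. It made up 81.2% of the D-type cyclin sum in T136A and 79.9% in WT. Ccnd1 (ENSMUSG00000070348; chromosome 7, 144929931 to 144939925, minus strand), the D-type cyclin best known as a target of growth factor and Wnt signals, was at 14.2 RPKM in T136A and 13.6 RPKM in WT. Its ratio of 1.04 had an interval of 0.960 to 1.13, which included 1.

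Ccnd2, which is prominent in adult progenitor and germ cells, was the lowest member in both libraries. It was at 0.399 RPKM in T136A and 0.194 RPKM in WT, from 69 reads in T136A and 32 in WT. The length used, 9409 bases, counts all its annotated exons. In plain RPKM that is 2.05-fold higher in T136A (1.33 to 3.23), but at under 1 RPKM it entered no count. The summed level of the 3 cyclins was 77.5 RPKM in T136A and 68.7 RPKM in WT, a ratio of 1.13 (1.10 to 1.16). Parts of some members are shared with genes of the opposite strand, and no rule for strand is given in the sources used here. The shared part is 1100 of 4709 exon bases for Ccnd1 (with LTO1, at 2.53 RPKM in T136A and 2.45 RPKM in WT), 625 of 2039 for Cdkn1c (with Gm44732), 273 of 3553 for Cdkn1a (with AC167363.2), 361 of 8775 for Ccnd3 (with Bysl), and 368 and 372 of 9409 for Ccnd2 (with 9330179D12Rik and Gm43126). Those values are to that extent uncertain.

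**Figure D3:**
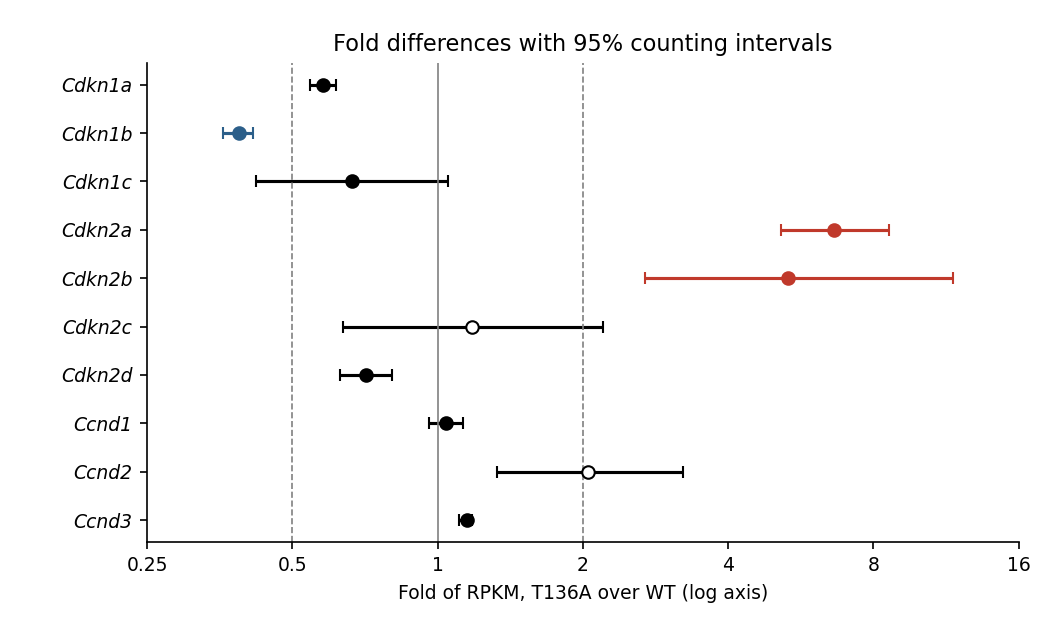
Fold of RPKM, T136A over WT, on a log axis with 95% counting intervals for each gene. Red marks genes counted as higher in T136A, blue as lower, black as within 2-fold, and open circles genes under 1 RPKM in both libraries; dashed lines stand at 2-fold. The intervals of Cdkn1c, Cdkn2c and Ccnd1 include 1, and those of Cdkn2a (5.14 to 8.63) and Cdkn2b (2.69 to 11.7) lie wholly above 2.

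The order of the 10 levels differed between libraries mainly through Cdkn2a and Cdkn1b. In T136A the order from the top was Ccnd3, Cdkn1a, Cdkn2a, Cdkn2d, Ccnd1, Cdkn1b, Cdkn2b, Cdkn1c, Cdkn2c and Ccnd2. Cdkn2d, Ccnd1 and Cdkn1b, at 15.5, 14.2 and 13.0 RPKM, overlapped their neighbours in that order within counting error, and so did Cdkn1c, Cdkn2c and Ccnd2. In WT the order was Ccnd3, Cdkn1a, Cdkn1b, Cdkn2d, Ccnd1, Cdkn2a, Cdkn1c, Cdkn2c, Cdkn2b and Ccnd2. There the first 7 were apart from their neighbours by more than counting error, and the last 3 were not. Cdkn2a was thus in place 3 of the members in T136A and in place 6 in WT, and Cdkn1b in place 6 in T136A and in place 3 in WT.

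Over all 7 inhibitors the summed level was 80.9 RPKM in T136A and 106 RPKM in WT, a ratio of 0.761 (0.727 to 0.796). CIP/KIP genes made up 49.6% of it in T136A and 75.4% in WT. The share of Cdkn2a was 27.9% in T136A and 3.21% in WT, that of Cdkn1b 16.0% in T136A and 31.5% in WT, and that of Cdkn2d 19.2% in T136A and 20.5% in WT. Set against one another, D-type cyclin and inhibitor transcripts stood at 0.958 to 1 in T136A and 0.646 to 1 in WT. Cdkn2a enters these sums with both of its products, and the share of ARF, which is not a CDK inhibitor, is not known. The sums are of transcript levels and say nothing of protein amounts or of how well each protein binds.

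The kinases that the D-type cyclins drive had lower values in T136A, of which Cdk6 was past the 2-fold line. Cdk4 was at 127 RPKM in T136A and 170 RPKM in WT, and Cdk6, its close relative, at 1.17 RPKM in T136A and 3.81 RPKM in WT, 3.24-fold lower (2.85 to 3.70). Cdk4 accounted for 99.1% of their sum in T136A and 97.8% in WT, so the sum followed Cdk4, at 128 RPKM in T136A and 174 RPKM in WT. Among the 7 CDKs and parts of the CDK-activating kinase, Cdk6 was the 1 gene at least 2-fold lower and 0 were higher. Over all genes kept 3.10% were lower and 3.13% higher. Of the 7 genes in the list, Cdk1, the kinase of mitosis, had the highest log2 ratio, 0.05. The list's median was -0.20.

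Downstream of the D-type cyclins, 0 genes passed the 2-fold line in either direction. Over all genes kept 3.13% were higher and 3.10% lower, and the 0 is read against those shares. The lists were 6 cyclins of types E, A and B (median log2 ratio -0.16), 12 retinoblastoma family, E2F and DP genes (-0.14) and 24 E2F targets of S phase entry (-0.20). In the first list Ccna1, a cyclin of germ cells, was lowest with -0.57 and Ccnb2, of mitosis, highest with 0.07. In the second, E2f8, a repressor of E2F targets, was lowest at 3.66 RPKM in T136A and 7.59 RPKM in WT (log2 ratio -0.88), and E2f2 highest with 0.52. In plain RPKM E2f8 was 2.08-fold lower in T136A (1.83 to 2.36), so the 0 depends on the 1 RPKM added. Of the E2F targets, 18 of 24 had a log2 ratio below 0, where 6479 of all 12320 genes kept did. Tyms, the thymidylate synthase, was lowest with -0.63, and Rrm1, a subunit of ribonucleotide reductase, highest with 0.32.

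Genes that turn over these proteins or act on the same kinases were also within 2-fold, where 3.13% of all genes kept were higher and 3.10% lower. In lists this short, 0 genes past the line does not set them apart from all genes. Of 17 parts of ubiquitin ligases, 0 were 2-fold apart, with a median of -0.06. Skp1a, the adaptor of SCF ligases, came closest, at 268 RPKM in T136A and 140 RPKM in WT (log2 ratio 0.93). Skp2, the SCF subunit that recognises p27, was at 7.27 RPKM in T136A and 6.41 RPKM in WT, and its cofactor Cks1b at 152 RPKM in T136A and 118 RPKM in WT. Btrc, another SCF recognition subunit, was lowest in that list with -0.27. Of 6 genes of WEE1 and CDC25 control, the phosphatase Cdkn3, which is no member of the INK4 or CIP/KIP families, was highest (0.63) and Cdc25c lowest (-0.53). In the ARF, MDM2 and p53 arm, 0 of 6 genes were 2-fold apart. Trp53 was at 215 RPKM in T136A and 176 RPKM in WT, and Mdm2 at 26.0 RPKM in T136A and 24.1 RPKM in WT, while Ttf1 had the highest log2 ratio, 0.41, and the ARF-binding ligase Huwe1 the lowest, -0.17.

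**Figure D4:**
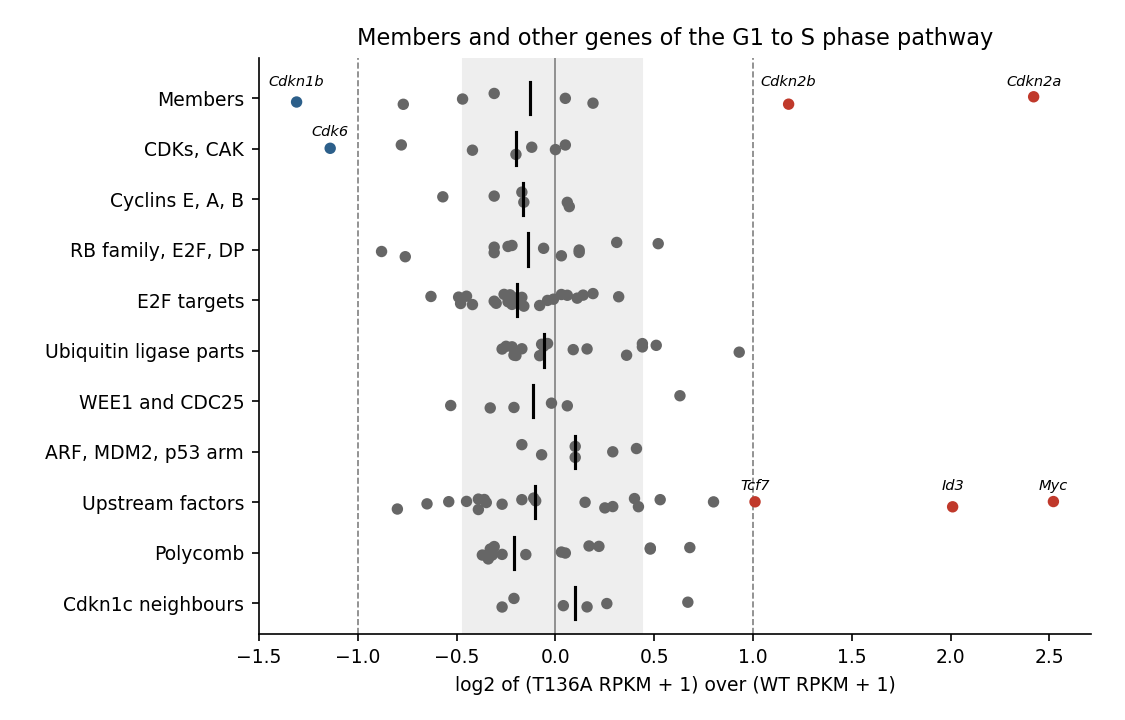
Log2 ratio of T136A over WT, with 1 RPKM added to each value, for genes at or above 1 RPKM, by list; each point is a gene, black bars are list medians, the grey band spans the central 68% of all genes (-0.47 to 0.44) and dashed lines mark 2-fold. Coloured points are named: 3 members, Cdk6, and the upstream factors Myc, Id3 and Tcf7 are past the line.

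Of transcription factors known to act on inhibitor or cyclin D genes, 22 of 25 were kept, 3 were at least 2-fold higher and 0 lower, with a median of -0.11, where 3.13% of all genes kept were higher and 3.10% lower. Myc, known to repress Cdkn1a and Cdkn2b together with Zbtb17 (MIZ1), was at 17.7 RPKM in T136A and 2.27 RPKM in WT. Its relative Mycn had a higher level than Myc in both libraries and went the other way. Mycn was at 59.6 RPKM in T136A and 78.3 RPKM in WT (log2 ratio -0.39). Zbtb17, the lowest of the list, was at 12.1 RPKM in T136A and 21.9 RPKM in WT (log2 ratio -0.80). Id3, of a family whose member Id1 is known to restrain the p16INK4a gene, was at 13.7 RPKM in T136A and 2.65 RPKM in WT. Id1 itself was within 2-fold, at 92.7 RPKM in T136A and 52.9 RPKM in WT (log2 ratio 0.80). Id2 went the other way, at 5.71 RPKM in T136A and 8.18 RPKM in WT (log2 ratio -0.45). Tcf7, a Wnt effector, was at 45.2 RPKM in T136A and 22.0 RPKM in WT. The FOXO factors, known to activate Cdkn1b, were closer: Foxo1 was at 2.77 RPKM in T136A and 3.83 RPKM in WT, and Foxo3 at 11.6 RPKM in T136A and 14.3 RPKM in WT. Polycomb complexes are known to silence the Cdkn2a locus. Of 16 genes in that list, which includes the opposing demethylase Kdm6b (7.27 RPKM in T136A and 4.94 RPKM in WT), 0 were 2-fold apart, and the median was -0.21. Eed, a core subunit, was highest with 0.68, and Cbx6 lowest with -0.37; Bmi1, the repressor best known for this locus, was at 1.86 RPKM in T136A and 2.63 RPKM in WT. Over the 117 distinct genes of the 10 pathway lists that were kept, 3 were higher and 1 lower, with a median of -0.11. All 3 higher genes belong to the transcription factor list, and the 1 lower gene is Cdk6. Set beside 3.13% higher and 3.10% lower over all genes kept, the pooled counts do not set the 117 genes apart.

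Markers of the labelled cell type were high in both libraries: all 8 embryonic stem cell markers were within 2-fold, and Pou5f1 was at 223 RPKM in T136A and 271 RPKM in WT. In a bulk sample, fewer cells of a type and less RNA per cell cannot be told apart, so markers of other cells were set beside the inhibitors. Of 16 fibroblast feeder markers, 11 were analysed here, 3 reached 1 RPKM, and the summed level of the 11 was 9.90 RPKM in T136A and 6.40 RPKM in WT. Col1a1 was at 0.530 RPKM in T136A and 0.470 RPKM in WT, Prrx1 was at 0 in both, and Thy1 was the highest at 5.32 RPKM in T136A and 2.50 RPKM in WT. The 8 extraembryonic endoderm markers summed to 8.02 RPKM in T136A and 4.40 RPKM in WT. All 4 of them that were kept had log2 ratios above 0, from 0.34 to 0.62, with a median of 0.54. Among these, Gata6 was at 1.68 RPKM in T136A and 0.805 RPKM in WT, and Sox17 at 1.38 RPKM in T136A and 0.551 RPKM in WT. Both passed the minimum only through the library in which they were high, so that count and median are descriptions. The 8 mesoderm markers summed to 2.66 RPKM in T136A and 2.37 RPKM in WT. The 8 neuroectoderm markers summed to 8.80 RPKM in T136A and 22.3 RPKM in WT, and the 8 trophectoderm markers to 44.5 RPKM in T136A and 71.2 RPKM in WT. In the neuroectoderm list Sox1 and Otx2 were at least 2-fold lower (log2 ratios -1.78 and -1.21) and Nes was at 0.42, with no other gene kept. Of the genes not kept, Pax6, Pax3 and Zic1 were at 0 in both libraries. Tfap2c, which these stem cells also express, made most of the trophectoderm sum and was at least 2-fold lower, at 26.5 RPKM in T136A and 57.7 RPKM in WT. The other 3 genes kept in that list, Krt8, Krt18 and Ascl2, had log2 ratios of 0.43, 0.17 and 0.67, and Cdx2 was at 0.0774 RPKM in T136A and 0.0253 RPKM in WT. The part of such cells in the differences was not tested. Ahcy itself was at 56.6 RPKM in T136A and 52.9 RPKM in WT, and a gene-level value cannot show the altered codon.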

How the data were processed

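RNA of E14.1 cells was sequenced from 1 T136A AHCY library and 1 WT AHCY library, built with a TruSeq RNA kit per the labels' protocols. The authors deposited 1 value per Ensembl gene and library; the labels do not name its unit. The values the authors deposited were read as RPKM, because they behave as read numbers divided by exon length and library size. Value times union exon length (GENCODE M21, GRCm38) times 1 constant per library was whole within 0.01 for 89.9% of positive values in T136A and 89.7% in WT, and the constants give the totals. The submitters' processing notes name CASAVA 1.8 and mm9; the aligner, counter and strand rule were not given in the sources used. Symbols matched 25696 of 25749 identifiers, and 9 rows that shared a symbol were dropped for the higher one.

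Python 3.11.15 with SciPy 1.17.1 was used. Log2 ratios had 1 RPKM added, genes needed 1 RPKM in at least 1 library, and printed folds are plain RPKM ratios. Counting intervals of a fold are exact conditional binomial (Clopper-Pearson), and those of a level exact Poisson. Intervals of summed levels use a normal approximation on the log scale, from the same reads. Reads came out whole for 8 members; for Cdkn2b the reads used were those given in the text, and for Cdkn1a they were estimated from the annotated length. Reads are not independent molecules. With 1 library per genotype no test was made. The steps were tested on simulated data.

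The members and lists were chosen with earlier results of these data known. Named genes are all members, Ahcy, genes past 2-fold and both extremes of each pathway list, neighbours of members past 2-fold, and, for the members with the highest and lowest ratio, the 3 genes nearest in both libraries. Cdk4, Phlda2, Skp2, Cks1b, Trp53, Mdm2, Mycn, Id1, Id2, the FOXO genes, Bmi1, Kdm6b, Gpr19, Apold1, Mtap, Dmrta1 and the cell markers fall outside this rule. They were picked with their values known. Skp1 was matched as Skp1a, and the feeder markers Col3a1, Dcn, Fap, Lum and S100a4 were not analysed here.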

Additional observations from a re-analysis of the deposited data

How the results depend on the processing

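Alternatives were 0.1 or 5 RPKM added, other minimum levels, 4 other scalings, a 1.5-fold line, and a counting interval that excludes 1. The direction of each of the 10 members and of each family sum was kept in the alternatives run on it. These medians lie near 0 and changed sign: that of the members was -0.13 over the 8 kept and 0.07 over all 10 without a minimum, and that of all genes is given below. Cdkn2a (1.71 to 2.69), Cdkn1b (-1.36 to -1.10) and Cdkn1a (-0.79 to -0.69) kept their side of the 2-fold line in all 6 alternatives run on single genes, which were the constants and scalings; Cdkn2b (0.41 to 2.16) did so in 5. Higher members numbered 1 with 5 RPKM added and 1 with a minimum of 5 RPKM, which leaves out Cdkn2b, and lower members 2 with a 1.5-fold line, which adds Cdkn1a. All genes numbered 723 higher and 727 lower with 0.1 RPKM added, 101 and 114 with 5 RPKM added, and 1282 and 1388 with a 1.5-fold line, and 209 were higher with a minimum of 5 RPKM. Their median was -0.02 with 5 RPKM added, 0 without a minimum, 0.0038 with median ratio scaling, 0.00097 with a trimmed mean of log ratios (TMM), 0.02 with upper quartile scaling and -0.01 with quantile normalization. The log2 ratio of the D-type cyclin sum was 0.21 with median ratio and 0.23 with upper quartile scaling, against 0.17. Pathway genes numbered 8 higher and 7 lower with a 1.5-fold line, 2 lower with 0.1 RPKM added, and 0 lower with 5 RPKM added or a minimum of 5 RPKM, since Cdk6 is a low-level gene. The causes of the other changes were not tested. Of 225 alternative values, 195 stayed within their limits (1.5 times for counts, the counting or order-statistic interval for others). For the 8 members and the lists with 6 or 7 genes kept, the order-statistic interval is the full range of the log2 ratios. Their medians could hardly leave it, and the members' median stayed within it although its sign changed. The 195 therefore says little about those medians. No paired analysis was possible because each genotype has 1 library, and no library could be left out for the same reason. Depth limits Cdkn2b, Cdkn1c, Cdkn2c and Ccnd2, with 10 to 69 reads in a library.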

Other observations

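With 2 libraries, likeness of pattern can only mean a similar level in both. By distance in log2 of RPKM plus 1 over both libraries, the 3 of 12320 genes nearest to Cdkn2a were the noncoding Platr14 (19.9 RPKM in T136A and 3.91 RPKM in WT), Stra8, which germ cells need to enter meiosis (20.1 RPKM in T136A and 3.96 RPKM in WT), and the snoRNA gene Gm24494 (17.4 RPKM in T136A and 3.53 RPKM in WT), at distances of 0.23, 0.23 and 0.36. Nearest to Cdkn1b were Itga5, the fibronectin receptor subunit (13.2 RPKM in T136A and 31.9 RPKM in WT, distance 0.072), the G protein subunit Gng3 (12.2 RPKM in T136A and 33.7 RPKM in WT, distance 0.082) and Renbp (12.2 RPKM in T136A and 33.0 RPKM in WT, distance 0.083).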
